A study of Rattus norvegicus with 8 samples.

Results

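Crystallins are the abundant soluble proteins of the eye lens, where they give the fibre cells their clarity and refractive power. The alpha-crystallins are small heat shock proteins that hold unfolding proteins in solution, while the beta- and gamma-crystallins form a separate superfamily of compact structural proteins. Several family members are also transcribed in the retina, among neurons and glia, and have been linked there to stress, injury and axon growth. Mu-crystallin carries the family name only through its use as a lens protein in some marsupials and otherwise binds thyroid hormone.

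The genes described are Cryaa, Cryab, Cryba1, Cryba2, Cryba4, Crybb1, Crybb2, Crybb3, Crygs and Crym, 10 in all, found by the single gene symbol of their probes. Of these, 9 were measured, by 11 probes among 41048, within 14802 named genes. Crygs, the gamma-S-crystallin gene, had no probe with its symbol and is given no value. The genes were named by family with earlier results in view, and the sets of arrays beside which they are given were selected on the log2 ratios of the whole table, so the differences between those sets are a description and carry no test.

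The samples were rat retinal ganglion cells, the neurons whose axons form the optic nerve. Cells that had taken up the retrograde tracer 4DI-10ASP were sorted by size, with actinomycin D present to stop new transcription. RNA of large and small cells, amplified in 2 rounds, was hybridised together on 2-colour Agilent arrays. The labels give the large cells as Cy5 and the small cells as Cy3 on each of the 8 arrays. The series text nonetheless mentions a dye swap, and the labels name no swapped arrays. No strain, age or treatment of the rats is given in the labels, and the number of animals behind an array is not given either. Each array is 1 comparison of large with small cells, and each value is a log2 ratio of its channels, so the arrays form 1 group, numbered 39, 40, 41, 42, 43, 69, 70 and 71 by their titles.

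The labels do not say which channel is the numerator or whether arrays of the dye swap that the series text mentions had been turned. Only if the ratio runs large over small does a value above 0 stand for more RNA in large cells. Values are therefore given by their side of 0. Set 1 is made of arrays 39, 41, 43 and 70, and set 2 of arrays 40, 42, 69 and 71. Over all probes, Pearson's r between arrays of the same set lay between 0.16 and 0.68 (12 pairs). Of the 16 pairs that joined the sets 15 had an r below 0, the lowest being -0.29. The mean over 8 arrays weights both sets equally, and it measures large against small cells only if swapped arrays had been turned. Since a ratio holds no level, the arrays do not show whether a crystallin, or a defining marker of ganglion, lens or any other cells, was present or absent in either fraction.

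The sequences upstream of 4 members are shown because Cryaa, Cryba1 and Crybb3 shared 1 pattern over the arrays and Crybb2, the chromosomal neighbour of Crybb3, did not. Each is the run of 250 bases before an annotated start in RefSeq, build GRCr8, read 5′ to 3′ on the strand of the gene. Capitals mark TGCTGA, a part of the recognition element of the Maf transcription factors that act in the lens. They also mark TATAAA, a form of the TATA box, and the 8-letter heat shock element core. That core is TTC and GAA, or GAA and TTC, around any 2 bases. All were searched on both strands, with no overlap between them in these windows.
Cryaa, chr20:9784661-9784910, plus strand, upstream of the first of 2 annotated starts: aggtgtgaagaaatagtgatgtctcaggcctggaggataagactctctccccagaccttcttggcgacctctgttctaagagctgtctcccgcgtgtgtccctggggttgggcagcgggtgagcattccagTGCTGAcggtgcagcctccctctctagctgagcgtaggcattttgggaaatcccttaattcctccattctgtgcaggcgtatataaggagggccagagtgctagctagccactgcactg
Cryba1, chr10:63112818-63113067, minus strand: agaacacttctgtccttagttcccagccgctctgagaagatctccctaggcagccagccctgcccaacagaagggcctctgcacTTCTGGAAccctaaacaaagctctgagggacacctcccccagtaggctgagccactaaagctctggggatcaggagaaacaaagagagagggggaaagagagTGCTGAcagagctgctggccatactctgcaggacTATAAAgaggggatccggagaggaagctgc
Crybb3, chr12:49217304-49217553, plus strand: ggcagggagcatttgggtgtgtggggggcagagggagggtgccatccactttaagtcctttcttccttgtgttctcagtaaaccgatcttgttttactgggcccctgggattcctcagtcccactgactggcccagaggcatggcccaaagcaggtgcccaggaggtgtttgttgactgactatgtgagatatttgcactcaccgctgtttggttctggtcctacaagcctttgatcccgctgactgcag
Crybb2, chr12:49229942-49230191, plus strand: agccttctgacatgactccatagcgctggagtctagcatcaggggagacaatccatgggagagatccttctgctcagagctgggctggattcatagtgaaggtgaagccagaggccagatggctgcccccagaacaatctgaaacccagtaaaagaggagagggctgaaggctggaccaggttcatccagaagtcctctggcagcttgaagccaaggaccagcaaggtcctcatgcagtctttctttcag

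The table of promoters held 8 of the 10 members, all but Cryab and Crym. TGCTGA lay in the windows of 5 of the 8 (Cryaa, Cryba1, Cryba2, Cryba4 and Crygs), against 15.1% of all 33469 windows. TATAAA lay in 3 of the 8 (Cryba1, Cryba2 and Crygs), against 12.9% of all windows, and the heat shock element core in 1 (Cryba1), against 13.5%. Other TATA forms, such as tatataa in the window of Cryaa, were not counted. The GC box GGGCGG, searched on both strands and not capitalised, lay in 0 of the 8, against 30.5% of all windows. Of the 3 genes that shared a pattern, Crybb3 held none of these letters, nor did its neighbour Crybb2. A match or its absence concerns these letters in these windows alone.

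No crystallin gene was called in the mean over 8 arrays, which sets large against small cells only if swapped arrays had been turned. limma's moderated test called 0 of 9, with Benjamini-Hochberg adjusted p over all genes from 0.62 to 0.99, against 2.12% of all genes called. At an unadjusted p under 0.05 the count was 0 of 9 as well, against 13.1% of all genes, and the exact 2-sided sign-flip permutation test over the 8 arrays gave no p below 0.234 for any of them (smallest possible p 0.0078). The mean log2 ratios ran from -0.17 for Crybb2 to 0.26 for Cryba4, with a median of -0.04 against -0.01 over all genes. Means lay below 0 for 7 members and above 0 for 2.

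The 95% confidence interval of every member included 0. The widest was that of Cryba4, a beta-crystallin of the acidic class, from -0.16 to 0.68 (1.60-fold at its upper bound), and the narrowest that of Crym, from -0.18 to 0.13. Of the 9 genes 0 had the same sign on every array, against 4.41% of all genes. Their standard deviations over arrays ran from 0.16 for Crym to 0.62 for Cryba4, where the median gene had 0.28.

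**Figure D1:**
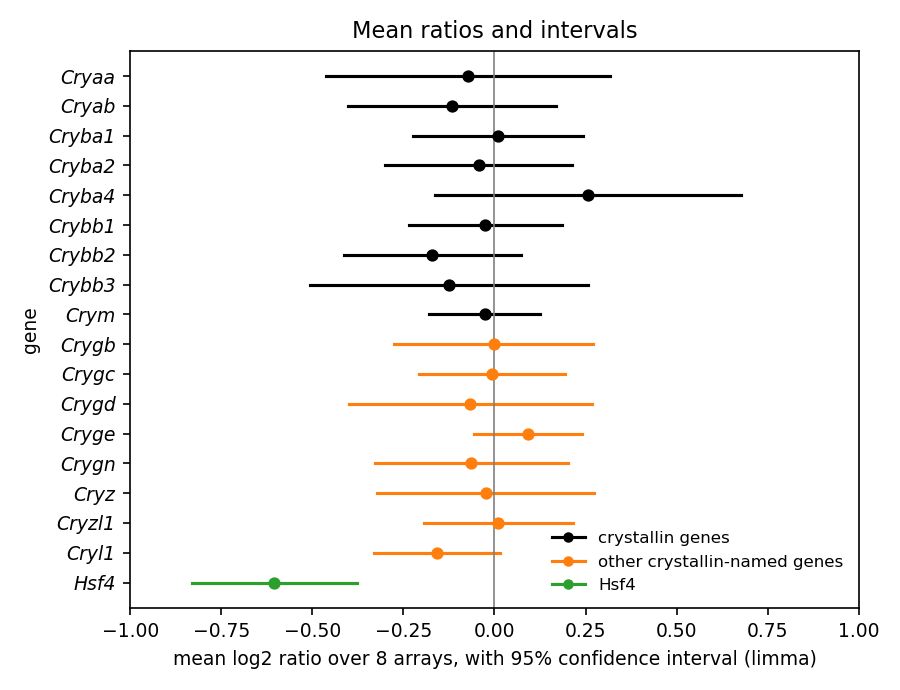
Mean log2 ratio over 8 arrays (point) with limma's 95% confidence interval (line) for the 9 crystallin genes (black), 8 other genes of crystallin name (orange) and the lens transcription factor gene Hsf4 (green). The intervals of the 17 crystallin-named genes include 0, and that of Hsf4 runs from -0.83 to -0.38.

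The alpha-crystallin genes differed from each other in how their values were spread. Cryaa, which encodes alpha-A-crystallin, the chaperone found mainly in the lens, read -0.78, -0.58, -0.49 and -0.53 on the arrays of set 1 (39, 41, 43 and 70) and 0.45, 0.41, 0.33 and 0.62 on those of set 2 (40, 42, 69 and 71). The 4 arrays of set 1 were thus all negative and the 4 of set 2 all positive, with no overlap. The set means were -0.60 ± 0.13 and 0.45 ± 0.12 (SD, n = 4 arrays each), a difference of -1.05 (2.06-fold), and the mean over 8 arrays was -0.07 ± 0.57 (SD, n = 8).

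Cryab, which encodes alpha-B-crystallin, the widely expressed small heat shock protein, did not follow the sets. It read 0.14, -0.54, -0.08 and 0.20 on set 1 and 0.24, -0.78, -0.36 and 0.26 on set 2. Its values were lowest on arrays 41 and 42 and above 0 on arrays 39, 40, 70 and 71. The set means were -0.07 ± 0.33 and -0.16 ± 0.51, and the mean over 8 arrays was -0.12 ± 0.40 (limma adjusted p = 0.834).

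Among the acidic beta-crystallins, Cryba1, which encodes beta-A3/A1-crystallin, a lens protein also known from retinal astrocytes and pigment epithelium, shared the pattern of Cryaa. Its values were -0.27, -0.29, -0.17 and -0.35 on set 1 and 0.17, 0.24, 0.48 and 0.27 on set 2. The sets did not overlap and lay on opposite sides of 0, with means of -0.27 ± 0.07 and 0.29 ± 0.13, a difference of -0.56. The mean over 8 arrays was 0.01 ± 0.31.

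Cryba2, the beta-A2-crystallin gene, came close to that pattern without completing it. It was -0.52, -0.16, -0.17 and -0.23 on set 1 and -0.26, 0.58, 0.30 and 0.13 on set 2. Array 40 was the exception, lying below 3 of the 4 arrays of set 1. The set means were -0.27 ± 0.17 and 0.18 ± 0.35, and the mean over 8 arrays was -0.04 ± 0.35.

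Cryba4, the beta-A4-crystallin gene, was the most variable member. It stood at 0.17, -0.29, 1.03 and -0.47 on set 1 and at -0.02, 1.09, -0.20 and 0.76 on set 2. High values came from both sets, on arrays 42, 43 and 71, and the sets overlapped over most of their range. Its mean of 0.26 ± 0.62 was the largest in size among the members and smaller than its spread (limma adjusted p = 0.697).

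Among the basic beta-crystallins, Crybb3, the beta-B3-crystallin gene, ran with Cryaa. It read -0.92, -0.54, -0.49 and -0.54 on set 1 and 0.27, 0.22, 0.39 and 0.60 on set 2. Again set 1 was negative and set 2 positive throughout, with means of -0.62 ± 0.20 and 0.37 ± 0.17 and a difference of -0.99 (1.99-fold). The mean over 8 arrays was -0.12 ± 0.56.

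Crybb2, which encodes beta-B2-crystallin, a protein reported to promote axon growth of rat retinal ganglion cells in culture, lies next to Crybb3 on chromosome 12 and behaved otherwise. It read -0.63, -0.01, 0.17 and -0.14 on set 1 and -0.71, -0.10, 0.15 and -0.10 on set 2. Its low values were those of arrays 39 and 40, 1 from each set, and the other 6 arrays lay between -0.14 and 0.17. The set means of -0.15 ± 0.35 and -0.19 ± 0.37 were close, and the mean over 8 arrays was -0.17 ± 0.33 (limma adjusted p = 0.62), with an interval from -0.41 to 0.07.

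Crybb1, the beta-B1-crystallin gene, read 0.35, -0.45, -0.27 and -0.15 on set 1 and -0.16, 0.13, 0.18 and 0.19 on set 2. On 3 of the 4 arrays of each set it had the signs of Crybb3, and arrays 39 and 40 had them the other way round. The set means were -0.13 ± 0.34 and 0.08 ± 0.17. Its neighbour on chromosome 12, Cryba4, had no such division.

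Crym, which encodes mu-crystallin, a thyroid hormone binding protein and ketimine reductase, had the narrowest spread of the members. It read 0.17, -0.15, 0.02 and 0.20 on set 1 and -0.03, -0.14, -0.28 and 0.01 on set 2, with set means of 0.06 ± 0.16 and -0.11 ± 0.13. The sets overlapped, and the mean over 8 arrays was -0.03 ± 0.16 (limma adjusted p = 0.956).

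**Figure D2:**
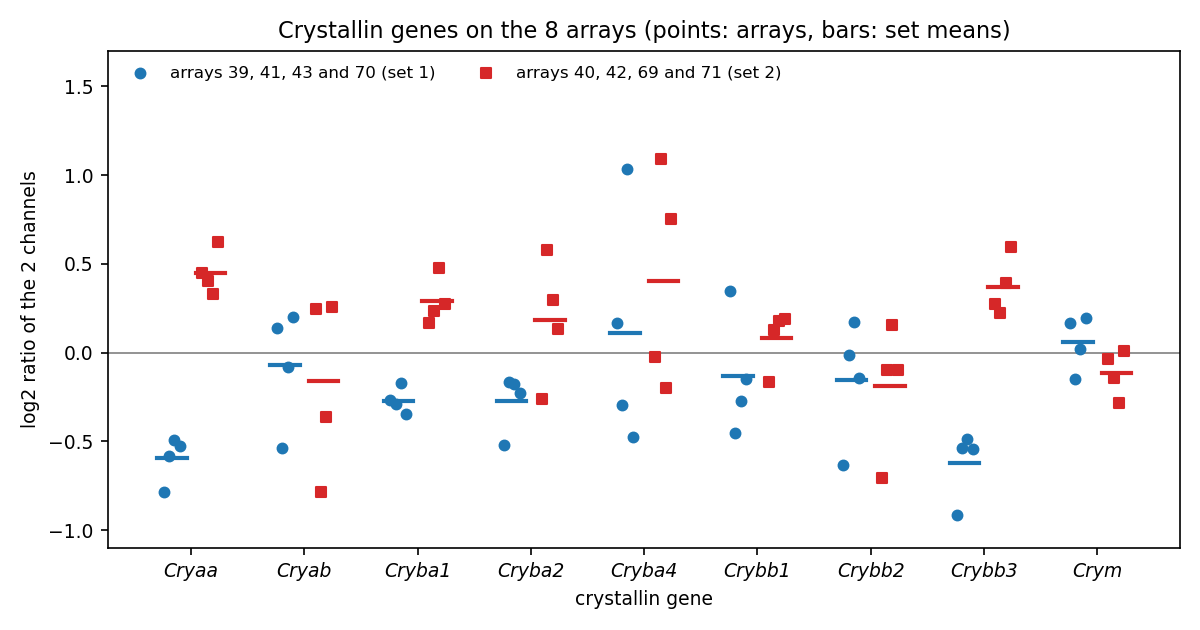
Log2 ratio of each of the 9 crystallin genes on the 8 arrays. Blue circles are arrays 39, 41, 43 and 70 (set 1), red squares are arrays 40, 42, 69 and 71 (set 2), and bars are set means. Cryaa, Cryba1 and Crybb3 have all blue points below 0 and all red points above 0, while Cryab, Cryba4 and Crybb2 have both colours on both sides.

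Counted over the family, 3 of 9 members (Cryaa, Cryba1 and Crybb3) had set 1 entirely below set 2, and 0 of 9 had it entirely above. Over all genes 18.0% lay entirely below and 16.8% entirely above, and either way 34.8%, so genes divided in this way were common and the count of members rests on few genes. The same 3 members were negative on every array of set 1 and positive on every array of set 2, as were 10.5% of all genes, and 0 members were the reverse, as were 9.42%. In size, the difference between the sets was larger for Cryaa than for 96.4% of all genes (3.59% had one at least as large) and for Crybb3 than for 95.7%, while that of Cryba1 exceeded 78.1% and that of Crybb2 5.8%. The median difference over the 9 members was -0.30, against -0.01 over all genes, and 6 members lay lower in set 1 and 3 higher.

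If a set held swapped arrays that had not been turned before deposit, the mean as deposited would not compare large with small cells. That comparison would then lie in the mean with the sign of the swapped set turned. The labels do not say which set that would be. If swapped arrays had been turned, the difference between the sets would not compare large with small cells. The labels do not tell these cases apart. Set 2 was turned here, and with set 1 turned instead each value would have the opposite sign. With set 2 turned limma called 3 of 9 members (Cryaa, Cryba1 and Crybb3) and 28.1% of all genes. This is given as a description, since the sets were selected on these values. The mean with set 2 turned was -0.52 for Cryaa (1.44-fold), -0.50 for Crybb3 (1.41-fold), -0.28 for Cryba1 and -0.23 for Cryba2. It lay between -0.15 and 0.09 for the other 5 members. Crybb2 (0.0165), Cryab (0.0455) and Crym (0.0862) had the smallest values in size. With the set as a covariate limma called 6.20% of all genes and with array weights 3.85%, and 0 of the 9 members in each.

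**Figure D3:**
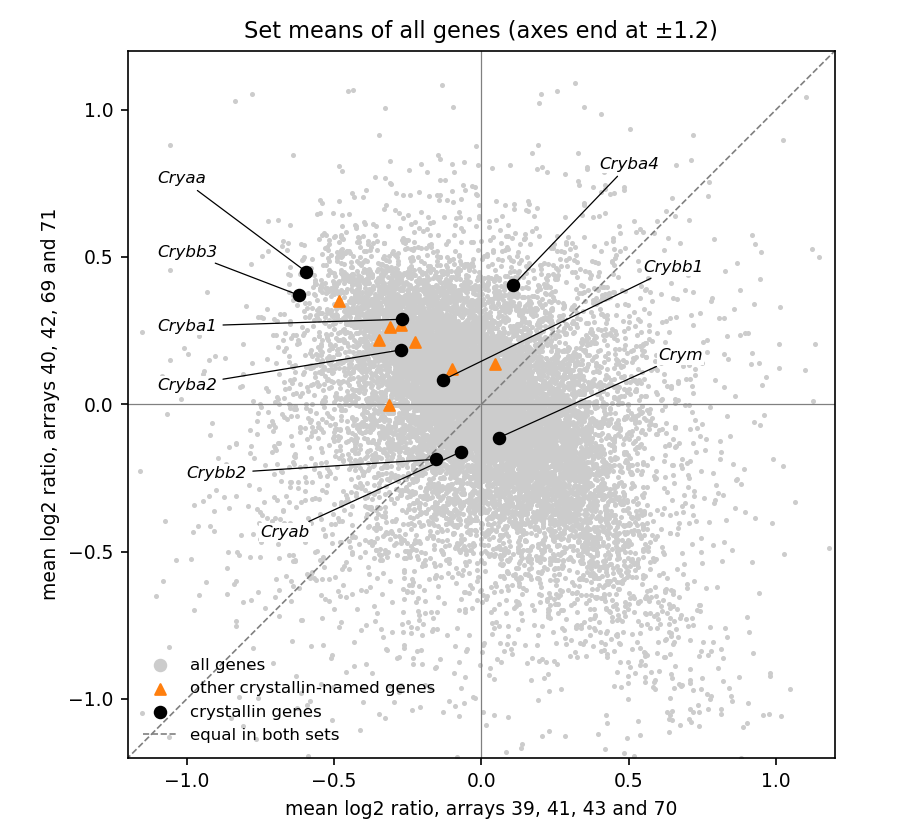
Mean log2 ratio over set 1 (horizontal) against set 2 (vertical) for all genes (grey), the crystallin genes (black, named) and 8 other crystallin-named genes (orange). The dashed line marks equal means, and genes beyond 1.2 in size are not drawn. Cryaa and Crybb3 lie at the upper left, at -0.60 and -0.62 on set 1 and 0.45 and 0.37 on set 2, and Crybb2 and Cryab lie near the dashed line.

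Neighbouring array numbers gave another division. In each of the 4 pairs 39 and 40, 41 and 42, 43 and 69, and 70 and 71, 1 array belonged to each set. The labels give no such pairing, although they state that a biological replicate was measured as 2 technical subreplicates. Crybb2 agreed closely within these pairs, with means of -0.67, -0.05, 0.16 and -0.12 in that order and no difference within a pair above 0.08. Its intraclass correlation over the pairs was 0.99, a value reached by 0.203% of all genes, where the median gene had -0.18. Cryab had 0.89, higher than 96.6% of all genes, with pair means of 0.19, -0.66, -0.22 and 0.23. Genes that follow the sets differ within such pairs by construction, and Cryaa and Crybb3 differed there by up to 1.23 and 1.19.

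Markers of other cells moved over the same arrays. The mean of 11 microglia markers was 0.87 and 0.77 on arrays 39 and 40, where Crybb2 was lowest, and -0.35 and -0.30 on arrays 41 and 42, where Cryab was lowest, against values from 0.11 to 0.29 on the other 4. Among these markers 0 of 11 were called, against 2.12% of all genes, 4 of 11 had an unadjusted p under 0.05, against 13.1%, and 10 of 11 had a mean above 0. The largest mean ratios were those of Itgam (0.74 ± 0.80) and P2ry12 (0.65 ± 0.60). Arrays 39 and 40 also held 69 of the 73 values of the table with a size above 15, the end of the ratio scale, none of which belonged to a crystallin. Without these 2 arrays the mean of Crybb2 was -0.0036 and that of Cryab -0.22. The part of either in the values of Crybb2 and Cryab was not tested.

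**Figure D4:**
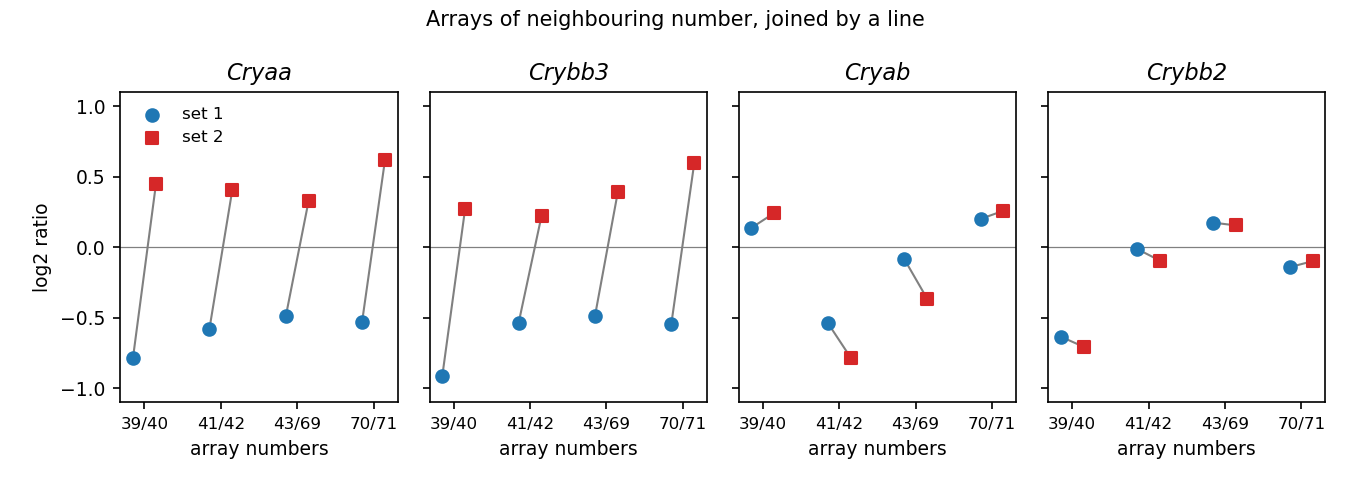
Log2 ratios of 4 crystallin genes with arrays of neighbouring number joined by a line (blue circle, set 1; red square, set 2). In Cryaa and Crybb3 each line crosses 0, whereas in Crybb2 the joined arrays differ by at most 0.08 and the lines lie at different heights.

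Probes of 1 gene did not always agree. Crym had 2 probes. Probe 246 read 0.50, -0.09, 0.20 and 0.47 on set 1 and -0.06, -0.72, -0.66 and -0.11 on set 2. Probe 8347 read -0.17, -0.20, -0.15 and -0.08 on set 1 and -0.01, 0.43, 0.09 and 0.13 on set 2. The difference between the sets was 0.66 on the first probe and -0.31 on the second, so the narrow spread of Crym is that of a mean of probes that ran in opposite directions. The sets did not overlap on probe 8347 and overlapped on probe 246. The 2 probes of Cryba1 ran the same way with unequal size, at -0.84 and -0.28, and only the first had sets that did not overlap. The other 7 members had 1 probe each and offer no such comparison.

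**Figure D5:**
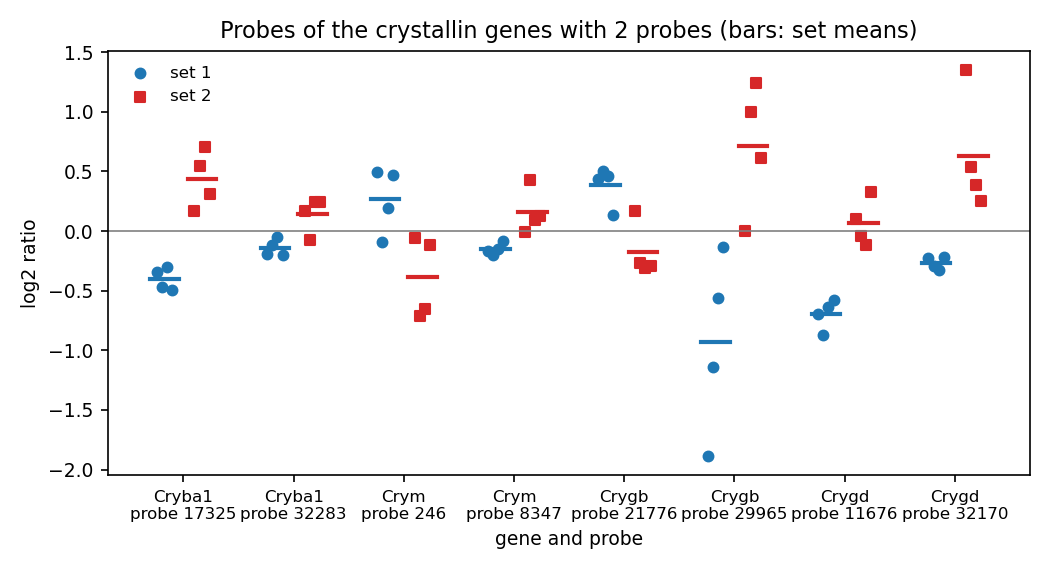
Log2 ratios of single probes for the crystallin genes with 2 probes, by set (blue circles, set 1; red squares, set 2; bars, set means). The set means of the 2 probes of Crym and of Crygb stand in opposite order, while those of Cryba1 and of Crygd stand in the same order.

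Other genes of the family, on a list drawn up with earlier results of these data known, had 8 of 15 members measured, with 0 called by limma, against 2.12% of all genes, and 0 at an unadjusted p under 0.05, against 13.1%. Gamma-crystallins, the small monomers of the lens core, made up 5 of them. Crygd had set means of -0.48 ± 0.08 and 0.35 ± 0.26, Crygc of -0.22 ± 0.05 and 0.21 ± 0.15, Crygn of -0.35 ± 0.20 and 0.22 ± 0.25, and Crygb of -0.27 ± 0.33 and 0.27 ± 0.18, and in these 4 set 1 lay entirely below set 2. Cryge had 0.05 ± 0.09 and 0.14 ± 0.20, which overlapped. Together, 7 of the 13 measured alpha-, beta- and gamma-crystallin genes had set 1 entirely below set 2, against 18.0% of all genes. Crygb, Crygc, Crygd and Cryge belong to a cluster of closely similar genes, so their probes may share signal and these may not be separate measurements.

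Crygb shows how far a mean of probes can hide a spread. Its probe 29965 ran from -1.88 on array 39 to 1.24 on array 69, with set means of -0.93 and 0.71, and its probe 21776 had set means in the opposite order, 0.38 and -0.18, with overlapping sets. The remaining 3 genes bear the name without belonging to these families. Cryz, a quinone reductase, lay at -0.02 ± 0.42, Cryzl1, a related protein, at 0.01 ± 0.26, and Cryl1, lambda-crystallin, a gulonate dehydrogenase, at -0.16 ± 0.20 (limma adjusted p = 0.457). Cryl1 had set 1 entirely below set 2, at -0.31 and 0.00.

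Of the regulators of lens crystallin genes, 1 of 13 measured was called, on the negative side, against 1.57% of all genes on that side. Hsf4, the heat shock factor that the mouse lens needs for normal crystallin expression, read -0.50, -0.77, -0.43 and -1.05 on set 1 and -0.17, -0.76, -0.29 and -0.86 on set 2. It was negative on 8 of 8 arrays, with overlapping sets. The mean was -0.60 ± 0.30 (SD, n = 8; 1.52-fold, 95% confidence interval from -0.83 to -0.38, limma adjusted p = 0.0155), which corresponds to lower in large cells only if the ratio runs large over small and swapped arrays had been turned. The call was lost without array 71 (-0.57, limma adjusted p = 0.0523) and over averages of neighbouring arrays (limma adjusted p = 0.129, where 0 genes were called). With the sign of set 2 turned the mean was -0.08 and was not past the threshold either (limma adjusted p = 0.804). Its 1 probe and the pair means of -0.34, -0.76, -0.36 and -0.96 are all that measure it here.

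The other regulators were not called, and in 5 of the 13 set 1 lay entirely below set 2, against 18.0% of all genes, and in 0 entirely above, against 16.8%. Foxe3 and Pitx3, factors of the lens epithelium and the early lens, had set means of -0.43 and 0.61 and of -0.30 and 0.32, each without overlap. Maf lay at 0.14 and 0.00, Pax6 at 0.22 and -0.09, and Prox1 at -0.34 and 0.17, all overlapping. The heat shock factors Hsf1 and Hsf2 had means over 8 arrays of -0.19 ± 0.56 and -0.20 ± 0.17 and were not called either.

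Lens genes that are not crystallins were divided in both directions. Of 15 measured genes on that list, which shares Hsf4, Foxe3 and Pitx3 with the regulators, 1 was called, Hsf4 itself, against 2.12% of all genes. Set 1 lay entirely below set 2 in 6, against 18.0% of all genes, and entirely above in 2, against 16.8%. Mip, the aquaporin of lens fibre membranes, had set means of -0.27 ± 0.03 and 0.33 ± 0.09, and Gja3, the lens connexin 46, of -0.65 ± 0.19 and 0.44 ± 0.11. Lctl and Lim2, both expressed in the lens, had the opposite order, at 0.42 ± 0.18 and -0.57 ± 0.20 and at 0.25 ± 0.10 and -0.29 ± 0.19. Over the list, 10 of 15 genes lay lower in set 1, the direction of Cryaa, and 5 higher, with a median difference of -0.25 and list means of -0.19 on set 1 and 0.03 on set 2. Their part in the crystallin values was not tested.

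Small heat shock proteins, the family of the alpha-crystallins, had 0 of 8 measured members called, against 2.12% of all genes, and 0 of 8 at an unadjusted p under 0.05, against 13.1%. Hspb2, which adjoins Cryab on the chromosome, had set means of -0.26 ± 0.11 and 0.21 ± 0.08 without overlap, unlike Cryab. Hspb1 (0.14 ± 0.27) and Odf1 (-0.12 ± 0.46) had the largest means in size. Genes of thyroid hormone handling, set beside Crym, had 0 of 12 called and 6 of 12 at an unadjusted p under 0.05, against 13.1% of all genes. Of the 12 means, 6 lay above 0 and 6 below, and the genes under 0.05 came from both sides. Ncor1, a corepressor of the thyroid hormone receptors, lay at 0.28 ± 0.20 and was positive on 8 of 8 arrays (limma adjusted p = 0.102), and Slco1c1, a thyroxine transporter, at 0.34 ± 0.50 (limma adjusted p = 0.401). On the negative side, Rxrg lay at -0.24 ± 0.16 and was negative on 8 of 8 arrays (limma adjusted p = 0.133).

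Cell types in which crystallins are also known were read through their markers. Müller glia and astrocyte markers had 1 of 15 called, Rlbp1 at 0.50 ± 0.31, on the positive side, where 0.547% of all genes were called. At an unadjusted p under 0.05 there were 2 of 15, against 13.1% of all genes, the other being Dkk3 at -0.23 ± 0.20. Means lay above 0 for 8 of the 15 and below 0 for 7, with list means of 0.11 on set 1 and -0.05 on set 2. Ganglion cell markers had 2 of 13 called, both negative (Slc17a6 at -0.64 ± 0.38 and Thy1 at -0.30 ± 0.11), against 1.57% of all genes on that side, and 3 of 13 at an unadjusted p under 0.05. Rod markers had 1 of 13 called, Rp1 at 0.83 ± 0.57, against 0.547% on the positive side. Of the rod markers, 7 of 13 had an unadjusted p under 0.05, against 13.1% of all genes, and 11 of 13 a mean above 0, with list means of 0.59 on set 1 and 0.03 on set 2. Amacrine markers had 0 of 9 called and 3 of 9 at an unadjusted p under 0.05 (largest, Gad2 at 0.51 ± 0.41 and Tfap2a at 0.23 ± 0.23) and pigment epithelium markers 0 of 8 and 1 of 8 (largest, Tyrp1 at -0.25 ± 0.53 and Ttr at -0.18 ± 0.15), against 2.12% and 13.1% of all genes. The mean of the ganglion cell list was -0.13 on set 1 and -0.21 on set 2, that of the amacrine list 0.13 and 0.09, that of the pigment epithelium list -0.04 and -0.03, and that of the microglia list 0.19 and 0.25. The part of these cells in the crystallin values was not tested.

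The genes most like the mean crystallin profile, Cryab or Crym are given as a description, since a likeness over 8 arrays in 2 sets mostly repeats the division between the sets. The members averaged did not all share a profile. Pearson's r with Cryaa was 0.985 for Crybb3, 0.915 for Cryba1 and 0.695 for Cryba2. It was 0.31 for Crybb1 and for Cryba4, 0.02 for Crybb2 and -0.06 for Cryab. The mean profile of the 8 members other than Crym was matched most closely by Rangrf (Pearson r = 0.98 over 8 arrays), Pam16 (0.98), Cbs (0.97; a gene near Cryaa on chromosome 20), Zfp362 (0.97) and Ticrr (0.97), and 447 of 14766 genes had a correlation above 0.9 with it. Cryab was matched most closely by Zfp706 (0.98), Atp5f1e (0.97) and Timm10b (0.97), with 39 genes above 0.9. For Crym, taken as the mean of 2 probes that ran in opposite directions, they were Plaat5 (0.99), Rpl14 (0.96) and Fau (0.96), with 35 genes above 0.9.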

How the data were processed

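The authors deposited 1 value table with a log2 ratio of 2 channels for 41048 probes on each of 8 arrays. How the scans were background-corrected and normalized: not given in the sources used here. Base 2 was read from the values: of 88 distances between common values, 67 matched a log2 of a ratio of small whole numbers within 0.0006, 16 a log10 and 0 a natural log. Array medians lay between -0.08 and 0.03. The number of arrays limits the precision.

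Probes were named by a platform table, updated by gene identifier through RefSeq (GRCr8, names and upstream sequences only). Of the probes, 23374 had 1 symbol, 48 several and 17626 none, and 23327 matched RefSeq. A gene is the mean of its probes, with a value on at least 6 arrays. Tests were an intercept model in limma 3.58.1 (R 4.3.3; lmFit, eBayes) over all genes with Benjamini-Hochberg adjustment at 0.05, tested on simulated data, and exact sign-flip permutations. P-values treat arrays as independent, although technical subreplicates may share a biological replicate. The simulated arrays were independent too, so the simulation does not cover sets of correlated arrays or such subreplicates. Alternatives were centring, scaling, values at the end of the scale left out, median of probes, single probes, set as covariate, neighbouring arrays averaged, the sign of set 2 turned, array weights, single arrays left out and, chosen after seeing the data, arrays 39 and 40 left out.

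Members, sets of arrays and gene lists were chosen with earlier results of these data known. Named genes are the members, measured genes of the other crystallin list, per other list up to 3 called members or the 2 largest, and the genes most alike in pattern. Further regulators, lens genes, Hspb2, Rxrg and Dkk3 were named after their values were seen. Plots used matplotlib 3.10.9.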

Additional observations from a re-analysis of the deposited data

How the results depend on the processing

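No crystallin gene was called by limma with centred or scaled arrays, end-of-scale values missing, median of probes, set as a covariate, neighbouring arrays averaged, array weights, all 8 values required, any 1 array left out or arrays 39 and 40 left out. With the sign of set 2 turned 3 were called (Cryaa, Cryba1 and Crybb3), against 28.1% of all genes, but the sets were found from these values. Genes called over the whole table were 314 as deposited, 570 with array weights, 918 with set as a covariate, 4158 with the sign of set 2 turned and 0 over averages of neighbouring arrays, and lay between 118 and 304 with 1 array left out (118 without array 70, 148 without 43, 163 without 71, 181 without 42, 190 without 41 and 200 without 69). With set as a covariate, called list members included 3 for thyroid hormone handling (Thrb, Rxrg and Ncor1), 3 for rod markers (Pde6a, Cnga1 and Rp1) and 1 for amacrine markers (Gad2), against 6.20% of all genes in that fit. Hsf4, on the regulator and lens lists, stayed called there (limma adjusted p = 0.0095). The median over the members lay between -0.08 and -0.01 with 1 array left out.

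Several means changed sign. With the sign of set 2 turned they became 0.0455 for Cryab, -0.28 for Cryba1, -0.15 for Cryba4, 0.0165 for Crybb2, 0.0862 for Crym, -0.0452 for Cryge and -0.11 for Cryzl1. The turned mean is another quantity, fixed by the difference between the sets, and its sign depends on which set is turned. With set 1 turned instead, these genes would keep their sign and others, such as Cryaa and Crybb3, would change. With array weights the means became -0.042 for Cryba1 and 0.0105 for Crygb. Without arrays 39 and 40 they became 0.0726 for Cryba2, 0.10 for Crygb, 0.0163 for Crygc, 0.0269 for Crygn and 0.0943 for Cryz. Crygb became 0.0011 with centred and 0.0133 with scaled arrays. Single probes gave 0.0046 for Crym, 0.10 for Crygb, 0.18 for Crygd and -0.0651 for Cryzl1. With 1 array left out, ranges that crossed 0 were -0.17 to 0.0289 for Cryaa, -0.0575 to 0.0601 for Cryba1, -0.13 to 0.0249 for Cryba2, -0.078 to 0.0361 for Crybb1, -0.0592 to 0.0094 for Crym, -0.0691 to 0.10 for Crygb, -0.0634 to 0.0335 for Crygc, -0.18 to 0.0076 for Crygd, -0.15 to 0.0099 for Crygn, -0.13 to 0.0687 for Cryz and -0.0468 to 0.0699 for Cryzl1. The cause was not tested. Hsf4 lay between -0.67 and -0.54 with 1 array left out, and at -0.08 with the sign of set 2 turned, past no threshold (limma adjusted p = 0.804).

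No paired analysis was possible because the arrays form 1 group, in which replicate numbers only name arrays. Averages of neighbouring arrays were tested instead, as above. No scanner signal was analysed, so how far dim probes limit these ratios is unknown.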
